A study of Mus musculus with 22 samples.

Results

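The 9 genes described here are Myh6, Myh7, Myl3, Myl7, Tnnt2, Tnni1, Actn2, Ttn and Nppa, taken by symbol from gene tables that list 19721 genes in at least 1 of 22 libraries. All 9 were found. The libraries are RNA-seq of the mouse embryonic stem (ES) cell line J1, grown as embryoid bodies, which are free aggregates in which ES cells differentiate towards many tissues at once. TBBPA is tetrabromobisphenol A, a brominated flame retardant, and the series asks how it changes gene expression while embryoid bodies develop. At each of 5 days (D4, D9, D12, D18 and D28) there are 2 libraries given 0.1% DMSO, a solvent. Each day also has 1 library given 10 nM TBBPA and 1 library given 100 nM TBBPA, for which the labels give no DMSO percentage. In addition, 2 ES libraries had no treatment, so the step from ES cells to D4 differs in DMSO as well as in time. All groups share the J1 line, which is the only cell line in the series. The labels do not say whether the libraries of a group come from separate cultures, so a p-value here covers the spread among the libraries sequenced, which may be technical.

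The sarcomere is the contractile unit of striated muscle, in which myosin thick filaments pull on actin thin filaments. Myh6 and Myh7 encode the alpha and beta myosin heavy chains, the motors of the heart, and Myl3 and Myl7 encode light chains that bind the heavy chain. Tnnt2 and Tnni1 encode subunits of troponin, the calcium switch of the thin filament. Actn2 encodes alpha-actinin of the Z-disc, where thin filaments are anchored, and Ttn encodes titin, the giant spring that spans from Z-disc to M-line. Nppa encodes atrial natriuretic peptide, a hormone of atrial and embryonic heart muscle and not a sarcomere protein, so the name cardiac sarcomere genes holds for 8 of the 9. Several are not confined to the heart: Myh7, Myl3 and Tnni1 are also expressed in slow skeletal muscle, and Actn2 and Ttn in skeletal muscle at large. In mouse heart, Myh7, Tnni1 and Myl7 in the ventricle are known as early or fetal forms that give way to Myh6, Tnni3 and Myl2.

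Promoters are shown for the myosin heavy chains, which exchange places during the time course, for Myl3, which moved apart from the other members with TBBPA, and for Tnnt2, whose course was nearest to the mean of the others. Each is the RefSeq window (GRCm38.p6) from 250 bases before to 50 bases after the gene's start, read 5′ to 3′ on the gene's strand. Capitals mark matches, on either strand, to 5 motifs known from muscle promoters: TATAAA (the TATA box), CATTCC (M-CAT, bound by TEAD factors), GATAA (bound by GATA factors), the CArG box (bound by SRF) and the MEF2 site; no match overlaps another. The Myh6 window lies at chr14:54966558-54966857 on the minus strand, that of Myh7 at chr14:54994577-54994876 on the minus strand, that of Myl3 at chr9:110763428-110763727 on the plus strand and that of Tnnt2 at chr1:135836084-135836383 on the plus strand.
Myh6: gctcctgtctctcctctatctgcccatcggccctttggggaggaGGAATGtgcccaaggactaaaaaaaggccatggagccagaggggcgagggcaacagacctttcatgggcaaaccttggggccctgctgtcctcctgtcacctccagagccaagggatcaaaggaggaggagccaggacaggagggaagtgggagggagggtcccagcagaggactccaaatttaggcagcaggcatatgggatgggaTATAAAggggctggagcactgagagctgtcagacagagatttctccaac
Myh7: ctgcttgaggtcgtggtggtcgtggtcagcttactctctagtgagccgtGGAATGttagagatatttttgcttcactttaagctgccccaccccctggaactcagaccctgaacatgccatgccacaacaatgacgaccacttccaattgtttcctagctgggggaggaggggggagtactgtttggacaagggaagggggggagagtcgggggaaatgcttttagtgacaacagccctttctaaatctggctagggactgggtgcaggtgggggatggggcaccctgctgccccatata
Myl3: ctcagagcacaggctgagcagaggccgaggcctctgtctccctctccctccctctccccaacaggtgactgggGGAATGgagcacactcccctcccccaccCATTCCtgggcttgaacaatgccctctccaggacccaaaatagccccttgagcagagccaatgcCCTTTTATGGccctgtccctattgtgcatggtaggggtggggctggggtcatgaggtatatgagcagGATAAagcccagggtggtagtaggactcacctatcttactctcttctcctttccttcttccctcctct
Tnnt2: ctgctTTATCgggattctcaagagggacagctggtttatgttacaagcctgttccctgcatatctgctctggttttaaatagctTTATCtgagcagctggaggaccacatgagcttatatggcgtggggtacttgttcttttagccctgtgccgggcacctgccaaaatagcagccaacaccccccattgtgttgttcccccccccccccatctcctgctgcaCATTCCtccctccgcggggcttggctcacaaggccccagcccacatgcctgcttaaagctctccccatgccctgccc

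A window was found for 9 of 9 members. CATTCC or its complement was present in 6 of the 9 (Myh6, Myh7, Myl3, Myl7, Tnnt2 and Ttn) and in 14.7% of 32851 mouse promoter windows of 300 bases. GATAA was present in 4 (Myl3, Myl7, Tnnt2 and Nppa) against 25.4% of windows, and TATAAA in 2 (Myh6 and Nppa) against 13.6%. With the listed start as base 1, the TATAAA match began at base 2 in Myh6 and at base -9 in Nppa. Whether either serves as a TATA box was not tested. A CArG box was present in 2 (Myl3 and Myl7) against 1.63%, and a MEF2 site in 1 (Ttn) against 3.19%. The windows of Tnni1 and Actn2 held none of these letters. Myh7, Tnnt2 and Tnni1 have a second listed start, and those second windows held 0 matches. These are matches of letters and not measured binding.

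Depth was even, from 18158583 to 18998141 summed expected counts per library. DMSO pairs were close, with a chi-square per gene of 1.63 to 3.38 on average, while the ES pair stood further apart at 22.5. Levels below are CPM, counts scaled to a common library size, after correction by edgeR's trimmed mean of M values (TMM), which compare 1 gene between libraries, or the authors' FPKM, which is per gene length and compares genes with each other. In bulk RNA fewer cells of a type and less RNA per cell cannot be told apart. A gene is called where edgeR's quasi-likelihood test gave a Benjamini-Hochberg adjusted p under 0.05 over all genes tested, and the differences are log2 values ± SE.

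Counting limits what can be said of 3 members. The expected counts of Myh6, Myh7 and Actn2 were fractional in nearly every library (whole in 0, 1 and 0 of 22), while those of the other 6 members were whole in all 22. Fractional expected counts of a gene can arise where reads that also fit another gene are shared out. In the GENCODE M21 transcripts 22.6% of the 50-base words of Myh6 also occur in Myh7, and 22.2% of those of Myh7 occur in Myh6. The authors' counting could thus move reads between these neighbouring genes. How far a level could shift also depends on the level of the partner, so for the lower gene it can exceed these shares. In DMSO at D9, Myh7 was at 52.3 CPM and Myh6 at 14.9 (means, n = 2). The size of the shift was not measured. Actn2 shares 0.0675% of its words with Actn3, and the other 6 share none. Myh7 is also overlapped by the antisense RNA Mhrt, which has 0 rows in the tables, and the strand setting of the counting is not stated, so reads of the pair cannot be told apart.

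Of the markers of heart muscle outside the 9 genes, Nkx2-5, the early cardiac transcription factor, was at 0.519 ± 0.040 CPM in ES cells and at 0.181 ± 0.085 at D4 (SD, n = 2). It was between 0.979 ± 0.45 and 1.75 ± 0.12 CPM in DMSO from D9 to D28. Pln, which encodes the calcium pump inhibitor phospholamban, was at 0 in both ES libraries and at 3.29 ± 0.026 CPM at D18 and 3.72 ± 0.38 at D28. Myl2, the ventricular light chain, did not exceed 2.10 CPM in any library. Ryr2, the calcium release channel, was at 12.1 ± 1.5 CPM in ES cells already and at 17.1 ± 0.27 at D28. Tnni3, a cardiac troponin gene, was at 7.33 ± 0.65 CPM in ES cells, 2.86 ± 0.35 at D12 and 6.76 ± 0.55 at D28. Outside these markers, Actc1, the cardiac actin, was at 0.0307 ± 0.043 CPM in ES cells and 68.8 ± 1.07 at D12. Gata4, a cardiac transcription factor also expressed in endoderm, was at 6.22 ± 2.8 in ES cells and 142 ± 0.35 at D28. Both are examples from lists that also hold genes that fell, such as Hand1 from D12 to D18 (log2 -2.04 ± 0.11).

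**Figure D1:**
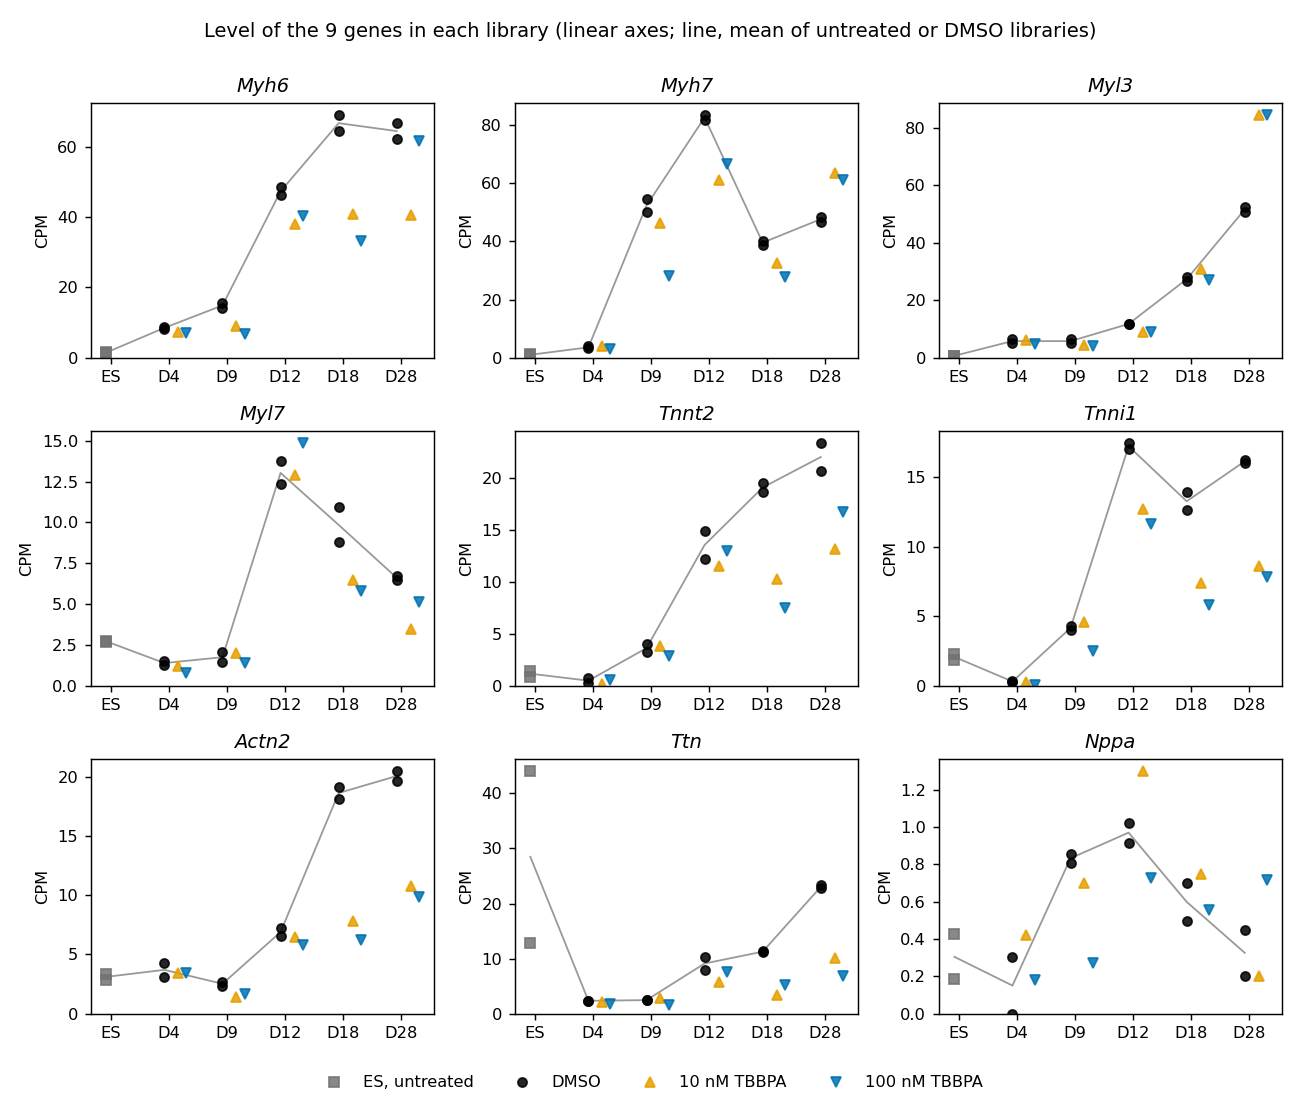
Level of each of the 9 genes (vertical axis, CPM on a linear scale that differs between panels) in ES cells and at each day (horizontal axis). Each point is 1 library and the line joins means of untreated or DMSO libraries; Myh7 peaks at D12, Myl3 is highest at D28, where both TBBPA libraries stand above DMSO, and Actn2 at D18 and D28 has both TBBPA libraries far below DMSO.

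In untreated and DMSO libraries the summed FPKM of the 9 genes was 8.84 and 9.96 in ES cells, 12.98 and 10.66 at D4, 30.5 and 27.8 at D9, 93.2 and 91.8 at D12, 111 and 107 at D18, and 145 and 140 at D28. The widest gain fell between D9 and D12, the interval in which 7 of the 9 rose. Between D12 and D18 the members parted: Myl3, Actn2, Myh6 and Tnnt2 rose while Myh7, Myl7 and Tnni1 fell. The calls of Tnnt2, Myl7 and Tnni1 at this step are not firm, as given below.

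Myh7 and Myh6, the motor genes, rose at different times. Myh7 was at 1.10 and 0.851 CPM in ES cells and at 3.85 and 3.25 at D4. It was then at 50.2 and 54.5 CPM at D9, at 83.5 and 81.8 at D12, at 38.9 and 40.2 at D18, and at 46.8 and 48.5 at D28. No 2 neighbouring days overlapped. Its rise from D4 to D9, 14.7-fold (log2 3.88 ± 0.10, adjusted p 1.34e-12, edgeR), was the largest fold of any member at that step. It rose again by 0.67 ± 0.07 to D12, fell by 1.06 on the log2 scale (SE 0.07) to D18, and rose by 0.27 ± 0.07 to D28. The last rise was lost without the first D18 library (adjusted p 0.0685) or the second D28 library (0.0642).

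Myh6 was above Myh7 per gene length at D4 and below it at D9. It was at 1.66 and 1.28 CPM in ES cells, 8.19 and 8.78 at D4, 15.7 and 14.1 at D9, 48.6 and 46.2 at D12, 69.1 and 64.5 at D18 and 62.3 and 66.8 at D28. Each step up to D18 passed the test (log2 2.53 ± 0.17, 0.81 ± 0.11, 1.69 ± 0.09 and 0.50 ± 0.08 in order, adjusted p from 9.32e-09 to 0.000151, edgeR). Between D18 and D28 the pairs overlapped. Per gene length the Myh6 to Myh7 ratio was therefore above 1 at D4 (2.11 and 2.71), below 1 at D9 (0.313 and 0.260) and D12 (0.585 and 0.567), and above 1 again at D18 (1.79 and 1.62) and D28 (1.34 and 1.39). The order thus changed hands between D4 and D9, and again between D12 and D18. These ratios are descriptive, and they carry the shared-read limit of this gene pair.

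The light chains both rose from D9 to D12, but moved in opposite directions from ES cells to D4 and after D12. Myl3, the light chain of ventricle and slow muscle, was at 0.552 and 0.729 CPM in ES cells and at 6.57 and 4.99 at D4. D9 was no higher, at 6.46 and 5.04 CPM. From there it climbed at each step, to 11.8 and 11.7 at D12, 26.7 and 27.9 at D18 and 52.6 and 50.6 at D28. Those 3 steps passed the test, with log2 differences of 1.04 ± 0.14, 1.23 ± 0.12 and 0.91 ± 0.11 (adjusted p 8.99e-05, 2.52e-06 and 9.14e-06, edgeR). Its flat step from D4 to D9 was the only member difference whose sign depended on scaling (-0.03 to 0.13 over the 3 scalings).

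Myl7, the atrial light chain, was at 2.76 and 2.67 CPM in ES cells, so the ES libraries were above those of D4 (1.51 and 1.26) and the step down was called (-0.97 ± 0.25). After 2.05 and 1.45 CPM at D9 it was at 13.7 and 12.3 at D12, a rise of log2 2.91 ± 0.19 (adjusted p 1.24e-07, edgeR), which is 7.52-fold and the largest of the 9 at that step. It then declined, to 10.9 and 8.78 CPM at D18 and to 6.50 and 6.72 at D28. Both declines were called (-0.40 ± 0.15 with adjusted p 0.0498, and -0.58 ± 0.16 with adjusted p 0.00685, edgeR), and the first is at the threshold: DESeq2 gave it an adjusted p of 0.226. The second was lost without the first D18 library (0.101) or the first D28 library (0.0517). Myl7 was thus a gene of the middle of the course, and Myl3 of its end.

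The troponin genes moved together up to D12. Tnnt2 was at 0.858 and 1.46 CPM in ES cells, 0.723 and 0.241 at D4, 3.98 and 3.27 at D9, 12.3 and 14.9 at D12, 19.6 and 18.6 at D18, and 23.4 and 20.7 at D28. Tnni1 was at 1.84 and 2.31 CPM in ES cells, 0.241 and 0.361 at D4, 4.04 and 4.29 at D9, 17.5 and 17.0 at D12, 12.6 and 13.9 at D18, and 16.05 and 16.3 at D28. Both fell from ES cells to D4 (-1.26 ± 0.45 for Tnnt2 and -2.76 ± 0.31 for Tnni1), although the Tnnt2 call was lost without the second D4 library (adjusted p 0.238) or the second ES library (0.178). Both rose at each of the next steps, by log2 2.89 ± 0.35 and 1.92 ± 0.20 for Tnnt2 and by 3.76 ± 0.26 and 2.06 ± 0.13 for Tnni1. They separated after D12, when Tnnt2 rose by 0.50 ± 0.16 (adjusted p 0.0261, edgeR) and Tnni1 fell by 0.37 on the log2 scale (SE 0.12, adjusted p 0.0222). Neither step is firm: DESeq2 gave that of Tnni1 an adjusted p of 0.137, leaving out any 1 of the 4 libraries took the Tnni1 call away (0.0514 to 0.164), and leaving out any but the second D12 library took the Tnnt2 call away (0.0872 to 0.234).

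Tnni3, the adult cardiac form of the same troponin subunit, was at 7.79 and 6.87 CPM in ES cells, above both of its D18 values (4.11 and 3.52), and at 7.15 and 6.37 at D28. The Tnni1 to Tnni3 ratio of FPKM was 0.225 and 0.350 in ES cells and 0.0609 and 0.0936 at D4. It then favoured Tnni1, at 2.23 and 1.46 at D9, at 5.69 and 5.70 at D12, at 2.82 and 3.55 at D18 and at 2.02 and 2.28 at D28. The ratio was highest at D12 and lower at each later day.

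Actn2 was a late gene. It was at 2.88 and 3.34 CPM in ES cells, 3.13 and 4.27 at D4, 2.69 and 2.36 at D9, 6.52 and 7.26 at D12, 19.2 and 18.1 at D18, and 19.6 and 20.5 at D28. The rises from D9 to D12 (log2 1.46 ± 0.17) and from D12 to D18 (1.44 ± 0.14) passed the test, with adjusted p of 2.61e-05 and 1.74e-06 (edgeR). ES and D4 libraries overlapped, and so little separated D18 from D28 that the difference was 0.10 ± 0.12. Its small fall from D4 to D9 (-0.55 ± 0.19, adjusted p 0.0225, edgeR) was not called by DESeq2 (0.0537), nor without the second D4 library (0.299) or the second D9 library (0.132).

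Ttn was already present in ES cells, and the ES libraries did not agree. They were at 44.1 and 12.9 CPM, against 2.35 and 2.35 at D4, 2.53 and 2.41 at D9, 7.99 and 10.2 at D12, 11.2 and 11.3 at D18 and 22.7 and 23.3 at D28. The fall to D4 was called (-3.60 ± 0.60, adjusted p 0.00103, edgeR), and either ES library was above both D4 libraries. No later step of Ttn was called by edgeR over the 12 ES and DMSO libraries, although DESeq2 called the rise from D9 to D12 (adjusted p 0.00209 against edgeR's 0.0542). Fits of only the 4 libraries of each step, which leave out the ES pair, called the rises from D9 to D12 (3.96e-11), D12 to D18 (0.02) and D18 to D28 (1.91e-15, edgeR). Per length Ttn was the lowest member at every day, with at most 0.45 FPKM in any library.

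Nppa was close to the limit of detection, with 0 to 25 expected counts per library. It was at 0.184 and 0.426 CPM in ES cells, at 0.301 and 0 at D4, at 0.807 and 0.858 at D9, at 0.916 and 1.02 at D12, at 0.702 and 0.496 at D18 and at 0.45 and 0.202 at D28. Only the rise from D4 to D9 was called (log2 2.41 ± 0.72, adjusted p 0.00991, edgeR), and it was lost without the second D4 library (0.0854), in which Nppa had no counts. Nppb, the sister hormone B-type natriuretic peptide, was at 6.75 ± 1.33 FPKM at D12 against 1.21 ± 0.092 for Nppa, and at 3.77 ± 0.50 against 0.425 ± 0.23 at D28 (SD, n = 2).

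By step, 7 of 9 members were called from ES to D4 (3 higher, 4 lower), where 62.3% of 16203 tested genes were called (31.9% higher, 30.3% lower). From D4 to D9 the count was 6 of 9 (5 higher, 1 lower) against 60.8% of genes (31.9% higher, 28.9% lower). From D9 to D12 it was 7 of 9 (7 higher) against 33.1% (17.5% higher, 15.6% lower). From D12 to D18 it was 7 of 9 (4 higher, 3 lower) against 37.7% (20.7% higher, 17.1% lower), and from D18 to D28 3 of 9 (2 higher, 1 lower) against 53.0% (24.9% higher, 28.1% lower). The D12 to D18 count was 4 without the first D12 library or the second D18 library and 5 without either other library. The D18 to D28 count was 1 without the first D18 library, and 6 in a fit of only those 4 libraries. The counts of the first 2 steps are near their background, that of D9 to D12 in 1 direction is above it, and that of D18 to D28 is below it. As the members were chosen with earlier results of these data known, this is a description and no independent test. The median log2 difference of the 9 was -0.97, 0.81, 1.69, 0.31 and 0.20 in order, beside medians of all genes of 0.00, 0.01, 0.0, 0.00 and -0.03. Other muscle genes rose at more than 1 step. From D9 to D12, 18 of 31 other sarcomere genes rose and 1 fell, and 7 of 10 smooth muscle genes rose and 1 fell. Of 22 skeletal muscle genes tested, 2 rose and 3 fell at that step. From D12 to D18, 14 of the 22 rose and 1 fell, with Myog, a skeletal myogenic factor, up by 4.82 ± 0.33. From D18 to D28, 15 rose and 0 fell. The part of skeletal muscle in the rises of Actn2, Myl3 and Tnnt2 from D12 to D18 was not tested.

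Per gene length the leading member changed from day to day in DMSO. Myl3 led at D4 with 5.91 ± 1.12 FPKM (SD, n = 2), ahead of Myl7 at 2.17 ± 0.25. Myh7 led at D9 with 8.46 ± 0.49, followed by Myl3 at 6.49 ± 1.12. Myl7 led at D12 with 23.8 ± 1.8, then Tnni1 at 17.0 ± 0.50, then Myh7 at 14.1 ± 0.20 and Myl3 at 14.0 ± 0.042, which do not differ beyond their spread. Myl3 led again at D18 with 33.6 ± 1.03, then Myl7 at 18.5 ± 2.9 and Tnnt2 at 17.2 ± 0.73, again within their spread. At D28 the order was Myl3 (64.5 ± 2.3), Tnnt2 (20.6 ± 1.9), Tnni1 (16.8 ± 0.21), Myl7 (12.6 ± 0.19), Myh6 (11.6 ± 0.47), Myh7 (8.52 ± 0.13), Actn2 (7.16 ± 0.28), Nppa (0.425 ± 0.23) and Ttn (0.295 ± 0.0071), where only Nppa and Ttn lie within their spread. Myl3 alone then made up 45.2% of the summed FPKM of the 9.

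With TBBPA the members that were called were lower, with the most calls at D18, except Myl3, which was called higher at D28. Myh7 at D28 also lay above DMSO in both TBBPA libraries but was not called. For this comparison the 10 and 100 nM libraries of a day were taken as a pair against the DMSO pair of that day, in 1 edgeR model of all 22 libraries. At D18 Actn2, Tnnt2, Tnni1, Myh6 and Myl7 were lower by 2.65-, 2.15-, 2.0-, 1.80- and 1.61-fold. At D28 Tnni1 and Actn2 were still lower, by 1.97- and 1.95-fold, while Myl3 was 1.64-fold higher.

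**Figure D2:**
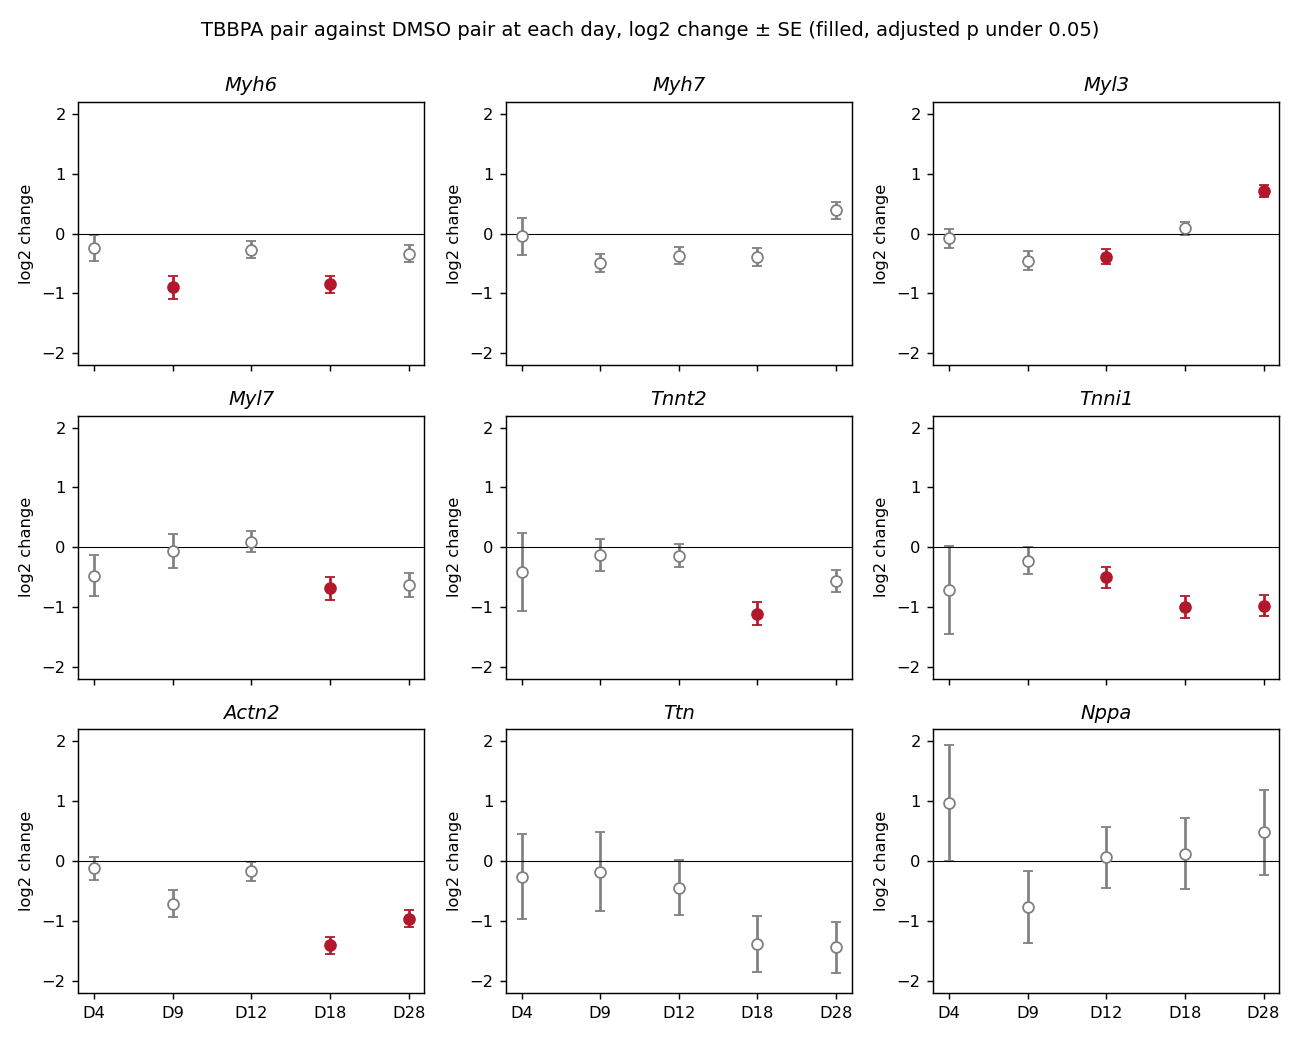
Difference between the TBBPA pair and the DMSO pair (vertical axis, log2; bars, SE of the edgeR fit) at each day (horizontal axis) for each of the 9 genes, with filled points where the adjusted p was under 0.05. At D18 5 genes are filled and below 0, and at D28 Myl3 is filled above 0 while Tnni1 and Actn2 are filled below it.

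Myh6 was below both DMSO libraries of its day in all 10 TBBPA libraries. At D9 it was at 9.07 CPM with 10 nM and 6.88 with 100 nM, against 15.7 and 14.1 in DMSO (log2 -0.90 ± 0.19, adjusted p 0.0144, edgeR). At D18 it was at 40.8 and 33.3 CPM against 69.1 and 64.5 (-0.85 ± 0.14, adjusted p 0.000557). The other days had smaller gaps: 7.32 and 7.10 against 8.19 and 8.78 at D4, 38.0 and 40.5 against 48.6 and 46.2 at D12, and 40.6 and 61.7 against 62.3 and 66.8 at D28. Those 3 differences were not called. At D28 the doses parted, with 10 nM well below DMSO and 100 nM just below it, and without the 100 nM library the difference was called (-0.67, adjusted p 0.00428, edgeR). The D9 call was lost without either DMSO library or without the 100 nM library (adjusted p 0.0724 to 0.176).

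Myh7 was called at no single day by edgeR over all 22 libraries, while DESeq2 called it at D12 (adjusted p 0.0491). It was at 4.02 and 2.85 CPM with TBBPA at D4, 46.4 and 28.2 at D9, 61.2 and 66.8 at D12, and 32.6 and 27.8 at D18, below the DMSO pair on the last 3 of those days. At D28 it was at 63.7 and 61.1 CPM, above the DMSO values of 46.8 and 48.5 (0.39 ± 0.14, adjusted p 0.119, edgeR). Without the 10 nM library the D9 difference was called (-0.89, adjusted p 0.000211). The Myh6 to Myh7 ratio of FPKM was accordingly 0.640 and 1.02 with TBBPA at D28 against 1.34 and 1.39 in DMSO, and 1.26 and 1.21 against 1.79 and 1.62 at D18, both without overlap. At D12 it was 0.624 and 0.609 against 0.585 and 0.567, the other way round and also without overlap. The sum of both genes in CPM was 73.4 and 61.1 against 108 and 105 at D18, whereas at D28 it was 104 and 123 against 109 and 115.

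**Figure D3:**
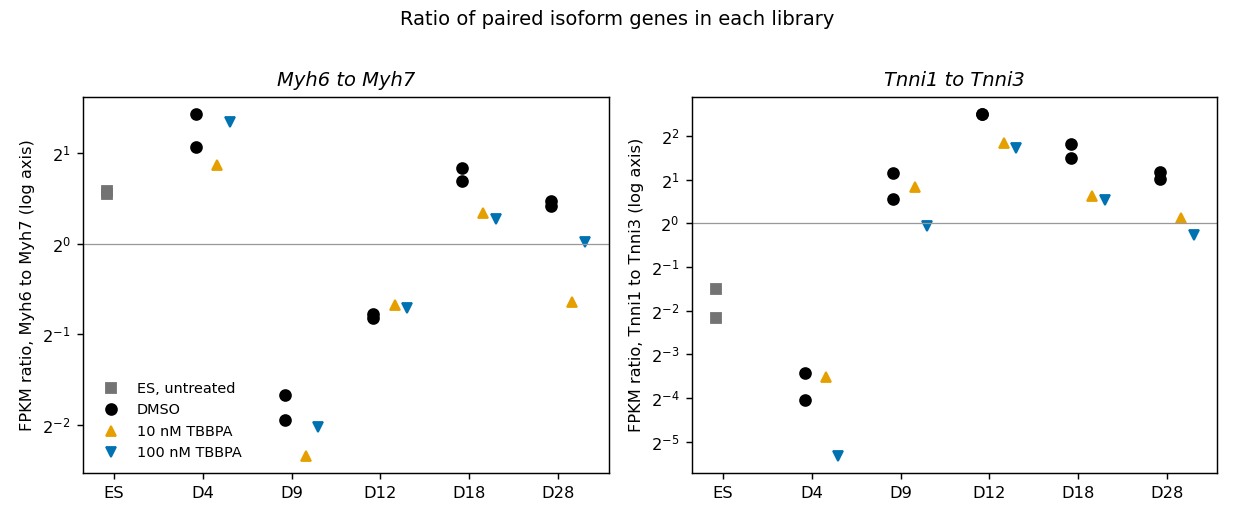
Ratio of authors' FPKM (vertical axis, log scale) of Myh6 to Myh7 (left) and of Tnni1 to Tnni3 (right) in each library, by day (horizontal axis). The Myh6 to Myh7 ratio is below 1 at D9 and D12 in all libraries, and at D28 it is 1.34 and 1.39 in DMSO and 0.640 and 1.02 with TBBPA; the Tnni1 to Tnni3 ratio is lower with TBBPA than in DMSO at D12, D18 and D28.

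Myl3 went from lower to higher. At D12 it was at 8.98 and 9.01 CPM with TBBPA against 11.8 and 11.7 in DMSO (-0.38 ± 0.13, adjusted p 0.0337, edgeR), a call lost when any 1 of the 4 libraries was left out. At D18 the groups overlapped, with 30.9 and 27.0 against 26.7 and 27.9. At D28 it was at 84.5 and 84.4 CPM against 52.6 and 50.6 (0.71 ± 0.10, adjusted p 0.000138, edgeR), so both doses gave the same level. D4 (6.06 and 4.85 against 6.57 and 4.99) and D9 (4.35 and 4.04 against 6.46 and 5.04) were not called. A test of whether the TBBPA difference was the same at all 5 days gave Myl3 an adjusted p of 0.000288, the smallest of the 9 (edgeR). Per length Myl3 made up 65.6% of the summed FPKM of the members with TBBPA at D28, at 103 ± 0.049 FPKM (SD, n = 2).

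Myl7 with TBBPA was at 1.20 and 0.789 CPM at D4, 1.99 and 1.36 at D9, 12.9 and 14.9 at D12, 6.46 and 5.79 at D18 and 3.46 and 5.11 at D28. Only D18 was called, against 10.9 and 8.78 in DMSO (-0.69 ± 0.19, adjusted p 0.0196, edgeR), and that call was lost without the first DMSO library (0.257) or the 100 nM library (0.144). At D28 both TBBPA libraries were also below DMSO (-0.63 ± 0.20, adjusted p 0.0631). D12, the day of its highest level, showed no gap, with the 10 nM library between the DMSO values and the 100 nM library above them.

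Tnnt2 with TBBPA was at 0.180 and 0.546 CPM at D4, 3.81 and 2.84 at D9, and 11.6 and 13.02 at D12, which at each of those days overlapped DMSO. At D18 it was at 10.3 and 7.45 CPM against 19.6 and 18.6 (-1.11 ± 0.19, adjusted p 0.000627, edgeR). At D28 it was at 13.2 and 16.8 against 23.4 and 20.7, which did not overlap but was not called (-0.55 ± 0.18, adjusted p 0.0723). Its DMSO level rose from D12 to D18, and the TBBPA libraries of D18 lay below all 4 libraries of D12.

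Tnni1 was called lower with TBBPA at 3 days, D12, D18 and D28. It was at 0.300 and 0.0607 CPM at D4 and at 4.62 and 2.51 at D9, where the groups overlapped. At D12 it was at 12.7 and 11.7 CPM against 17.5 and 17.0 (-0.50 ± 0.17, adjusted p 0.0408, edgeR), a call lost when any 1 of the 4 libraries was left out. At D18 it was at 7.41 and 5.84 against 12.6 and 13.9 (-1.0 ± 0.18, adjusted p 0.000827), and at D28 at 8.60 and 7.81 against 16.05 and 16.3 (-0.98 ± 0.18, adjusted p 0.00202). Tnni3 did not follow it: with TBBPA it was at 4.30 and 3.93 CPM at D18 against 4.11 and 3.52 in DMSO, and at 7.64 and 8.22 at D28 against 7.15 and 6.37. The Tnni1 to Tnni3 ratio of FPKM was thus 1.56 and 1.44 with TBBPA at D18 against 2.82 and 3.55, and 1.08 and 0.834 at D28 against 2.02 and 2.28, without overlap on either day.

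Actn2 had the largest called difference of the members. With TBBPA it was at 3.42 and 3.40 CPM at D4 and at 6.49 and 5.78 at D12, near DMSO, and at 1.40 and 1.69 at D9 against 2.69 and 2.36 (-0.71 ± 0.23, adjusted p 0.127, edgeR). At D18 it was at 7.86 and 6.19 CPM against 19.2 and 18.1 (-1.41 ± 0.14, adjusted p 2.97e-06). At D28 it was at 10.7 and 9.86 against 19.6 and 20.5 (-0.96 ± 0.14, adjusted p 0.000253). In DMSO the level of Actn2 rose 2.71-fold between D12 and D18, whereas its TBBPA libraries of D18 were close to those of D12. The difference depended on the day, with an adjusted p of 0.00178.

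Ttn with TBBPA was at 2.10 and 1.82 CPM at D4, 2.79 and 1.58 at D9, 5.76 and 7.65 at D12, 3.45 and 5.19 at D18 and 10.1 and 6.84 at D28. The D18 and D28 pairs were far below DMSO (11.2 and 11.3, and 22.7 and 23.3). Their log2 differences, -1.38 ± 0.47 and -1.44 ± 0.42, were not called by edgeR over all 22 libraries (adjusted p 0.0915 and 0.0604), while DESeq2 called both (0.0365 and 0.0299), as did edgeR fits of only the 4 libraries of the day (0.000962 and 0.00116). Nppa was at 0.420 and 0.182, 0.698 and 0.273, 1.30 and 0.729, 0.751 and 0.554, and 0.204 and 0.715 CPM at the 5 days in order. At these counts no difference was detectable for Nppa, whose groups overlapped at every day but D9.

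Counted by day, 0 of 9 members were called at D4, where 0.458% of 16383 genes were called (0.0855% higher, 0.372% lower); none had an unadjusted p under 0.05, and DESeq2 called 0. At D9 1 of 9 was called, lower, against 2.34% of genes (1.37% higher, 0.964% lower), and at D12 2 of 9, both lower, against 21.1% (11.9% higher, 9.19% lower). At D18 5 of 9 were called, all lower, against 10.5% (5.96% higher, 4.56% lower), and at D28 1 was higher and 2 were lower against 7.09% (3.65% higher, 3.44% lower). The D12 count is near its background, while those of D18 and D28 are above theirs. The members were chosen with earlier results of these data known, so these counts are descriptive and no independent test. These calls rest on counting the DMSO libraries as separate samples: with each DMSO pair summed to 1 library, only Actn2 at D18 was still called, and D9, D12 and D28 had 0 members called. The median log2 difference of the 9 was -0.23, -0.45, -0.27, -0.85 and -0.55 in order of day, with medians of all genes from 0.0 to 0.03. The TBBPA difference depended on the day for 3 of 9 members, Myl3, Actn2 and Myh7 (adjusted p for Myh7 0.0382, edgeR), where 10.4% of all genes did. With each DMSO pair summed, 0 of the 3 were called.

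Over the 5 days together, in a model of the 20 embryoid body libraries with day and dose, 6 of 9 members were lower with TBBPA at the mean of both doses, where 22% of 16242 genes were called, 11.7% higher and 10.3% lower. These were Ttn (-0.88 ± 0.17), Actn2 (-0.76 ± 0.13), Tnni1 (-0.72 ± 0.10), Tnnt2 (-0.52 ± 0.13), Myh6 (-0.52 ± 0.10) and Myl7 (-0.34 ± 0.12), with adjusted p from 6.74e-05 for Tnni1 to 0.0455 for Myl7 (edgeR). Myh7 (-0.20 ± 0.11), Myl3 (0.10 ± 0.12) and Nppa (0.02 ± 0.28) were not called. This model takes 1 difference for all days, although that of Myl3, Actn2 and Myh7 depended on the day. For Myl3 it was -0.38 at D12 and 0.71 at D28, so its small mean does not show that Myl3 was unchanged. Tnnt2 was no longer called without D18 (adjusted p 0.103), and Myh7 was called without D28 (-0.39, adjusted p 0.00125) or without its 100 nM library (-0.28, 0.0396). The Myl7 call was lost without D18 (0.299), without D28 (0.158) and in most fits that left out 1 library. With DMSO pairs summed, 4 of the 6 were called, without Tnnt2 (0.0535) and Myl7 (0.130). By count of single libraries, TBBPA lay below both DMSO libraries of its day in 10 of 10 for Myh6, 9 for Ttn, 8 for Actn2 and Tnni1, 7 for Tnnt2, Myl7 and Myh7, 5 for Myl3 and 3 for Nppa. It lay above both in 4 of 10 for Nppa, 3 for Myh7 and Myl3, 1 for Myl7, Tnni1 and Ttn, and 0 for Myh6, Tnnt2 and Actn2. Both doses of a day were set against the same DMSO pair. These counts were not made for all genes, so they have no background share and are descriptive.

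No member was called between the doses over the 5 days, which does not show that the doses gave the same levels. Tnni1 was lower with 100 nM than with 10 nM at each of the 5 days, as at D9 (2.51 against 4.62 CPM). Myh6 at D28 went the other way, at 61.7 CPM with 100 nM against 40.6 with 10 nM. Against DMSO alone, 5 of 9 were lower with 10 nM (all genes 9.58%, with 5.4% higher and 4.18% lower) and 5 of 9 with 100 nM (15.6%, with 7.57% higher and 8.0% lower), in each case Myh6, Tnnt2, Tnni1, Actn2 and Ttn; both comparisons use the same DMSO libraries. For Tnni1 the difference from DMSO was -0.55 ± 0.12 with 10 nM and -0.90 ± 0.13 with 100 nM, and for Myh6 it was -0.55 ± 0.12 and -0.49 ± 0.12. Between 100 and 10 nM directly 0 of 9 were called, with differences from -0.39 to 0.07, and 0.0% of all genes were called; 1 member, Tnni1, had an unadjusted p under 0.05 (-0.35 ± 0.15, p 0.0293, edgeR), as did 1037 genes, and DESeq2 called 0 members and 8 genes. Each dose has 1 library a day, so a dose step at a single day has no replicate check.

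**Figure D4:**
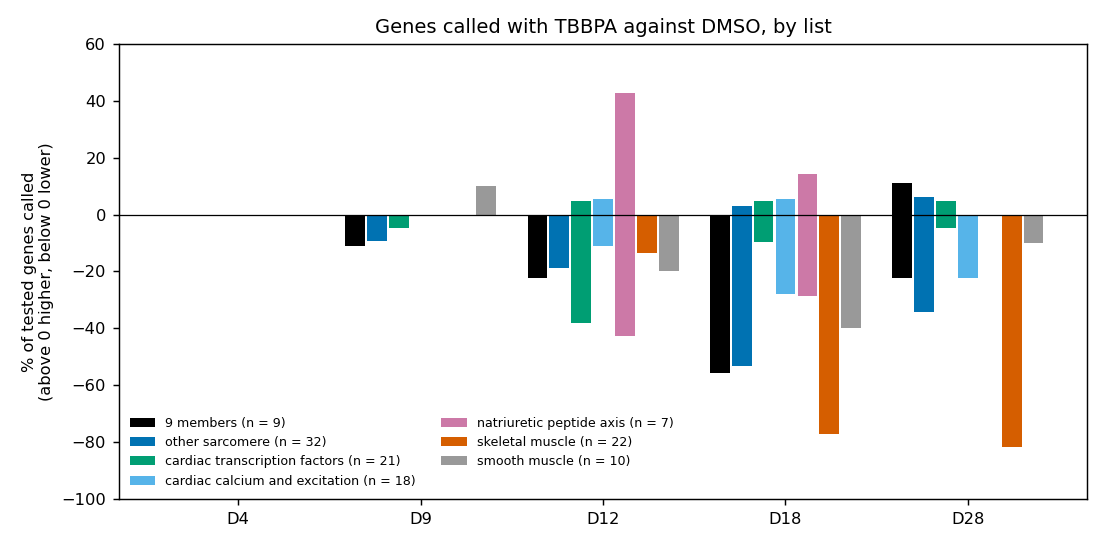
Share of the tested genes of each list (vertical axis, percent; above 0 called higher with TBBPA, below 0 called lower) at each day (horizontal axis), with the number tested in the key. At D18 5 of the 9 members and 17 of 22 skeletal muscle genes are called lower, and no list has a call at D4.

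The counts of other gene lists that follow stand beside all-gene shares of 1.37% higher and 0.964% lower at D9, 11.9% and 9.19% at D12, 5.96% and 4.56% at D18, and 3.65% and 3.44% at D28. These lists, too, were chosen with earlier results of these data known, so their counts are descriptive. Most other sarcomere genes that were called with TBBPA were lower. Of 32 other sarcomere genes 0 were called at D4, 3 lower at D9, 6 lower at D12, 17 lower and 1 higher at D18, and 11 lower and 2 higher at D28. At D18 the calls of smallest p were Actc1, the cardiac actin (-1.53 ± 0.18), Myl4, the embryonic and atrial light chain (-0.94 ± 0.15), and Myom1, a protein of the M-line (-0.97 ± 0.16). Actc1 was at 56.4 ± 4.7 CPM in DMSO and 19.5 ± 5.2 with TBBPA (SD, n = 2). At D28 Myl4 (-1.17 ± 0.15) and Actc1 (-1.28 ± 0.18) were lower. The list's median was -0.64 at D18 and -0.76 at D28.

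Of 18 calcium handling and excitation genes tested, 5 were lower and 1 higher at D18, and 4 were lower at D28. Casq2, which encodes the calcium store protein calsequestrin, was at 4.16 ± 0.28 CPM in DMSO and 1.28 ± 0.24 with TBBPA at D18 (-1.70 ± 0.30, adjusted p 0.000671, edgeR). Jph2, which ties the calcium store to the surface membrane, was lower at D12 (-0.36 ± 0.08), D18 (-0.68 ± 0.10) and D28 (-0.87 ± 0.10). Hcn4, the pacemaker channel, was the gene called higher at D18 (0.74 ± 0.16).

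Among cardiac transcription factors 19 of 21 rose and 1 fell from D4 to D9 in DMSO, where 31.9% of all genes rose and 28.9% fell. At that step 5 of the 9 members rose and 1 fell. A link between the factors and the members was not tested. With TBBPA 8 of 21 were lower and 1 higher at D12, where the lower calls of smallest p were Gata4 (-0.65 ± 0.12), Tbx3 (-0.74 ± 0.13) and Tbx20 (-0.81 ± 0.19). At D18 only 2 were lower (Mef2c at -1.16 ± 0.19 and Tbx2 at -0.69 ± 0.20) and 1 was higher (Hopx at 0.60 ± 0.10). At D28 Gata4 was higher, at 221 ± 14 CPM against 142 ± 0.35 in DMSO (0.64 ± 0.11), and Mef2c was lower (-0.66 ± 0.18). Gata4 is also expressed outside the heart, in visceral endoderm for one. Nkx2-5 was at 1.10 ± 0.066 CPM with TBBPA at D18 against 1.02 ± 0.47 in DMSO.

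Of the 7 genes of the natriuretic peptide axis outside Nppa, 3 were higher and 3 lower at D12. The call of smallest p was Corin, the protease that activates the hormone (0.91 ± 0.15), and Furin was lower (-0.39 ± 0.07). At D18 Nppb (-0.89 ± 0.26) and Npr3, the clearance receptor (-0.70 ± 0.11), were lower, and Nppc, the C-type hormone, was higher (1.26 ± 0.35). At D28 0 of 7 were called.

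Most skeletal muscle genes tested were called lower with TBBPA at D18 and D28. At D12 their count was near the share of all genes called lower, 9.19%. Of 22 tested, 0 were called at D4 and D9, 3 were lower at D12, 17 at D18 and 18 at D28, and none were higher at any day; the medians were -1.76 at D18 and -1.22 at D28. Their summed FPKM was 106.2 and 105.9 in DMSO at D18 against 40.1 and 36.6 with TBBPA, and 217 and 226 at D28 against 129 and 74.2. Myod1, the master factor of skeletal muscle, was at 4.58 ± 0.95 CPM in DMSO and 0.401 ± 0.42 with TBBPA at D18, and at 0 in all ES and D4 libraries. Myog was at 8.80 ± 0.88 against 1.58 ± 0.81 at D18 and at 10.8 ± 0.31 against 3.77 ± 1.65 at D28. The part of skeletal muscle in the lower levels of Actn2, Ttn, Tnni1 and the other members was not tested.

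Smooth muscle genes were called lower mainly at D18. Of 10 tested, 1 was higher at D9 (Mylk, at 0.60 ± 0.13), 2 were lower at D12, 4 at D18 (against 4.56% of all genes) and 1 at D28, with Mylk, the smooth muscle myosin kinase, at -1.03 ± 0.12 at D18. Their summed FPKM at D18 was 577 and 556 in DMSO and 479 and 372 with TBBPA. None of the 10 was at 0 from D9 on. Their part in the members' values was not tested.

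Over the 22 libraries Tnnt2 was the member nearest to the mean of the other 8 (Pearson r of scaled log2 CPM 0.977), followed by Tnni1 (0.944), Myh6 (0.899), Myl7 (0.847), Myh7 (0.762), Actn2 (0.752) and Myl3 (0.700). Nppa (0.425) and Ttn (0.387) stood apart. Tnnt2 and Tnni1 correlated with each other at 0.961. The genes outside the lists nearest to the members' mean were Pgm5 (0.975), which encodes a protein of cell adhesion sites in muscle, Lum (0.962) and Col3a1 (0.958) of the connective tissue matrix, Cygb (0.957), a globin, and Dkk2 (0.955), a secreted Wnt modulator; Trim55 (0.957), a sarcomere ubiquitin ligase, is the nearest listed gene. These correlations are descriptions over libraries that share the course of days.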

How the data were processed

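Total RNA of 22 libraries of J1 cells was sequenced. Per the submitters' processing notes, HISAT and Bowtie2 were used with the mouse build GRCm38.p5; versions, the counting tool and its use of strand are not given in the sources used here. Per the file headers, the authors deposited an expected count and an FPKM value for each gene; a gene not listed in a library was taken as 0. Between 64.9% and 66.7% of the expected counts were whole, and they were rounded to whole numbers for tests. DMSO replicate numbers were not treated as pairing the samples.

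Counts were tested with edgeR 4.0.16 in R 4.3.3 (TMM scaling, filterByExpr with a minimum count of 10 and total of 15, robust quasi-likelihood). There were 3 models: 12 ES and DMSO libraries (6 residual degrees of freedom), all 22 libraries in 11 groups (11), and 20 embryoid body libraries with day and dose (13). Alternatives were DESeq2 1.42.0, other scalings, no filter, leaving libraries or days out, DMSO pairs summed and 4-library models. Motif searches ran in Python 3.11.15. The tests were tried on simulated data.

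The members and gene lists were chosen with earlier results of these data known. All 9 members were named in each comparison, with up to 3 called genes of smallest p from each list, the paired isoform genes, and the 5 genes outside the members most like their mean.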

Additional observations from a re-analysis of the deposited data

Results flagged for a closer look

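The TBBPA difference was not the same at the 5 days for 3 members, by an F test of the interaction of day and treatment in edgeR with adjustment over all genes. Myl3 had an adjusted p of 0.000288 (log2 -0.08 at D4, -0.45 at D9, -0.38 at D12, 0.09 at D18 and 0.71 at D28). Actn2 had 0.00178 (-0.12 at D4, -0.71 at D9, -0.17 at D12, -1.41 at D18 and -0.96 at D28). Myh7 had 0.0382 (-0.05 at D4, -0.49 at D9, -0.37 at D12, -0.39 at D18 and 0.39 at D28). With each DMSO pair summed to 1 library, 0 of these 3 were called. The other 6 members did not pass, which does not show that their difference was constant.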

How the results depend on the processing

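Of the 17 member calls with TBBPA, by day and at the mean of both doses, 17 were kept with DESeq2, with either other scaling and without the filter on low counts, and 5 were kept with each DMSO pair summed to 1 library. Fits of only the 4 libraries compared kept 11 of 11 calls. No call reversed its sign under any alternative run. With a replicate block 30 of 30 member calls between control groups were kept. The difference between the first and second library of a group correlated across groups at -0.0568 to 0.2276 (15 pairs of groups, 1 above 0.1). Such low values gave little sign that the numbers pair the samples, but cannot exclude it. TBBPA libraries carry no number.

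With DMSO pairs summed, members called were 0 of 1 at D9, 0 of 2 at D12, 1 of 5 at D18, 0 of 3 at D28 and 0 of 3 for a difference between days; genes called were 0 at D4 (75), 0 at D9 (383), 781 at D12 (3452), 172 at D18 (1723), 6 at D28 (1162), 1231 over days (3566) and 21 between days (1708). With only the 4 libraries compared, members called were 6 of 9 from D18 to D28 (3), 5 at D12 (2) and 6 at D28 (3), and genes called were 8056 from D9 to D12 (5361), 663 at D4, 576 at D9 and 5223 at D12. DESeq2 called 160 genes at D4 and 8 between doses (0).

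With 1 library or day left out, members called ranged from 6 to 8 from ES to D4, 4 to 6 from D4 to D9, 7 to 7 from D9 to D12, 4 to 5 from D12 to D18 and 1 to 3 from D18 to D28. With TBBPA they ranged from 0 to 0 at D4, 0 to 2 at D9, 0 to 0 at D12, 4 to 5 at D18, 3 to 5 at D28, 4 to 6 over days, 0 to 0 between doses and 2 to 4 for a difference between days. Genes called ranged from 3236 to 3426 from D9 to D12, 4141 to 4216 from D12 to D18, 1 to 29 at D4, 93 to 287 at D9, 1718 to 2172 at D12, 735 to 1342 at D18, 231 to 1303 at D28, 1675 to 3669 over days (1675 without D12 and 1733 without D18), 0 to 7 between doses and 1015 to 1879 between days. The cause of these shifts was not tested, beyond the fewer samples. A lone library left in a group was assumed to vary like the other groups.

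Scaling by library size alone moved the median of all genes from D4 to D9 by 0.152 (6311 higher and 3459 lower, against 5170 and 4679). The split from D9 to D12 was 3158 to 2062 with DESeq2 size factors and 3409 to 1786 with library size, against 2828 to 2533; with TBBPA, library size gave 432 to 688 at D28 against 598 to 564, and 1434 to 1893 over days against 1899 to 1667.

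Counts limit Nppa (0 to 25 per library) and Tnni1 and Tnnt2 at D4. Read sharing limits Myh6 against Myh7.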
